A study of Mus musculus with 11 samples.

Results

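The 42 genes described here carry out or control DNA replication and mitosis, and were followed in the skin of mice given ABBV-075. ABBV-075 (mivebresib) is a small molecule that blocks the acetyl-lysine pockets of the BET bromodomain proteins. Treated mice received 1 mg/kg, and their skin was taken after 6 h (4 mice) or after 24 h (4 mice). The control was skin of 3 mice that received vehicle alone, and each mouse gave 1 Affymetrix 3' expression array. All 11 samples were whole skin, and the labels used here give no strain, age or sex, no route of dosing and no collection time for the vehicle mice. Of the 42 genes, 22 were grouped as replication and 20 as mitosis genes. Each was read through its brightest probe set annotated to that gene alone, out of 18194 genes with such a probe set. Of the 13710 genes bright enough to test, 41 were members. The exception was Tyms, thymidylate synthase, whose log2 level lay between 4.23 and 5.37 and was above the array's 40th percentile on 2 of 11 arrays.

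A cell that is to divide first licenses its replication origins: Cdc6 and Cdt1, with the origin recognition complex, load the Mcm2 to Mcm7 helicase on DNA. At the start of S phase cyclin E, E2F1 and their targets turn on, Cdc45 and the GINS complex switch the helicase on, and the polymerases follow with the sliding clamp Pcna. The mitosis genes peak later, in G2 and M, and build the spindle, sort the chromosomes and start the anaphase-promoting complex. In skin the dividing cells are mainly in the basal epidermis and, where follicles are growing, in the hair follicle.

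The 2 classes of genes are known to be read through different promoter elements, and the promoters of 6 members are shown because they carry those elements. Sequences are from RefSeq (GRCm38.p6), and each stretch is the 190 bases before an annotated transcription start, 5' to 3' on the gene's strand. For Cdc6, Mcm5 and Mki67 this start lies inside the annotated gene. The Cdc6 stretch thus lies wholly within the gene, and those of Mcm5 and Mki67 lie partly within it. They are Cdc6 at chr11:98907961-98908150 on the plus strand, Mcm5 at chr8:75109319-75109508 on the plus strand, Mcm6 at chr1:128359706-128359895 on the minus strand, Cdc20 at chr4:118437344-118437533 on the minus strand, Cdk1 at chr10:69352913-69353102 on the minus strand and Mki67 at chr7:135716380-135716569 on the minus strand. Capitals mark an E2F word (TTTGGCGC, TTTCCCGC, TTTGCCGC or TTTCGCGC) or the cell cycle genes homology region (CHR) core TTTGAA, on either strand. In Mcm5 and in the first match of Mcm6, neighbouring E2F words on opposite strands overlap in 1 capital run.
Cdc6: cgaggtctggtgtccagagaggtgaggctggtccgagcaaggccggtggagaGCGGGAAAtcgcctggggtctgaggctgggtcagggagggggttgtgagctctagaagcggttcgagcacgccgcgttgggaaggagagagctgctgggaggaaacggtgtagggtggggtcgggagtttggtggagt
Mcm5: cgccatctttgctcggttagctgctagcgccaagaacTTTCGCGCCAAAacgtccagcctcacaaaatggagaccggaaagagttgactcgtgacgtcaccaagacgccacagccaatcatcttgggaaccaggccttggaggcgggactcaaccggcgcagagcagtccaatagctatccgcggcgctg
Mcm6: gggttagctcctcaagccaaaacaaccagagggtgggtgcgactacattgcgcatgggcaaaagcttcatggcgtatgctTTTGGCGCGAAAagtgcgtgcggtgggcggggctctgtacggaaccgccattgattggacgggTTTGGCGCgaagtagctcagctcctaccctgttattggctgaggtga
Cdc20: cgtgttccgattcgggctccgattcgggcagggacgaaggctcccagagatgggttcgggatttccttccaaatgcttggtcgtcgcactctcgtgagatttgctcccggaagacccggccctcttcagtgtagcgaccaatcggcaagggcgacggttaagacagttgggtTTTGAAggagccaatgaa
Cdk1: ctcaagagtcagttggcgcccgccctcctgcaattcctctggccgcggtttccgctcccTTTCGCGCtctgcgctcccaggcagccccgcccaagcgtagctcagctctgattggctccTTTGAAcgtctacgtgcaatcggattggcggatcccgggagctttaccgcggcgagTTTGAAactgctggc
Mki67: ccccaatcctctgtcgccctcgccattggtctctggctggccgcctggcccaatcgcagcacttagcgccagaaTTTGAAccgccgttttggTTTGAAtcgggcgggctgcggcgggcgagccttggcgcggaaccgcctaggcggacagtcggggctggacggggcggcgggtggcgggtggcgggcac

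Promoter windows from 250 bases before to 50 bases after the start were found for 34 of the 42 members, 18 replication and 16 mitosis genes. An E2F word was present in 8 of the 18 replication promoters (Cdc6, Cdt1, Mcm3, Mcm5, Mcm6, Mcm7, Pola1 and Uhrf1), in 1 of the 16 mitosis promoters (Cdk1), and in 2.26% of 32851 promoter windows of the same length. The CHR core was present in 12 of the 16 mitosis promoters, in 2 of the 18 replication promoters (Mcm2 and Cdc45) and in 17.9% of all windows. The word CCAAT, read by the factor NF-Y and often paired with the CHR, was in 14 of the 16 mitosis promoters, 12 of the 18 replication promoters and 37.4% of all windows. The first base of the 13 E2F words of replication members lay at a median of 110 bases before the start. A member was counted if any of its windows held the word, whereas the shares of all windows count single windows (32851 windows from 27025 genes). A match is a description of these letters and was not tested as a binding site.

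**Figure D1:**
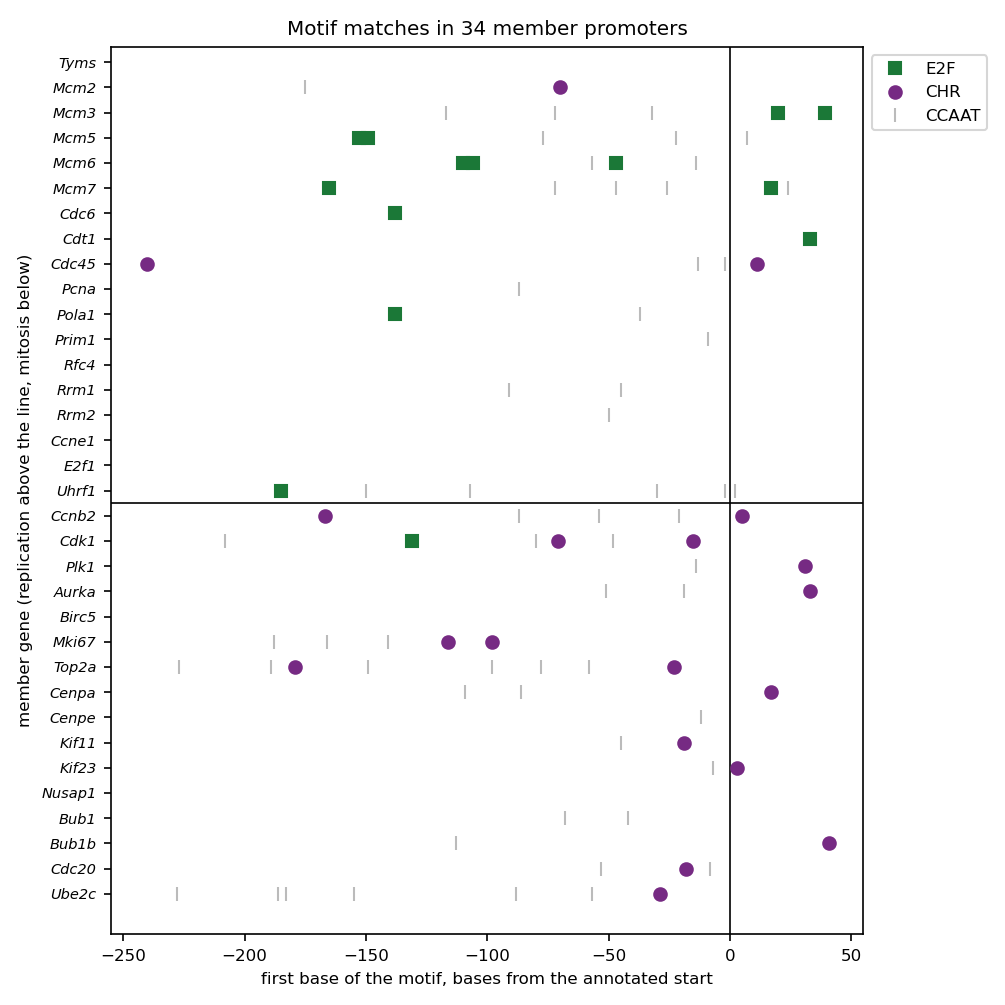
Positions of E2F words, CHR cores and CCAAT words (markers) in the promoter windows of the 34 matched members, 1 row per gene. The horizontal axis is the distance from the transcription start in bases. E2F words lie in 8 of 18 replication rows and 1 of 16 mitosis rows, and CHR cores in 12 of 16 mitosis rows and 2 of 18 replication rows.

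Levels are log2(intensity + 16) after quantile normalization, a scale with a floor of 4.00, and changes are differences of group means on that scale with the standard error of limma's fit. No member passed an adjusted p of 0.05 in any of the 3 comparisons, and neither did any other gene (0% called in each). The smallest adjusted p over all 13710 genes (limma, Benjamini-Hochberg) was 0.0638 for 6 h against vehicle, 0.0868 for 24 h against vehicle and 0.0672 for 24 h against 6 h. At an unadjusted p under 0.05, 1099 genes were higher and 1103 lower at 6 h than in vehicle skin. Without normalization between arrays, 859 genes were called at 6 h, none of them a member, and the median of all genes lay at -0.68 at 6 h and -0.62 at 24 h against vehicle, so that a gene with a smaller difference above vehicle turns negative there. The arrays differed in RNA quality. The ratio of the 5' to the 3' beta-actin probe sets averaged 0.289 at 6 h, 0.406 at 24 h and 0.547 in vehicle skin. It was lowest, at 0.0725, in 6 h replicate 5. The same ratio for Gapdh averaged 0.549 at 6 h, 0.943 at 24 h and 0.832 in vehicle skin, so that 24 h was not below vehicle by Gapdh. The Gapdh ratio was 0.104 in 6 h replicate 5 and 0.684 to 0.711 in the other 6 h arrays. In these bulk samples, fewer cells of a type and less RNA per cell cannot be told apart.

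The clearest movement among the members was between the treated times, and lay in the origin licensing genes. All 8 of them (Mcm2 to Mcm7, Cdc6 and Cdt1) were lower at 24 h than at 6 h, by 0.42 to 1.0, with a median of -0.77 against -0.02 over all genes. At an unadjusted p under 0.05, 5 of the 8 were lower at 24 h (Mcm2, Mcm4, Mcm5, Cdc6 and Cdt1), as were Pcna and Ccne2, so that 7 of the 21 replication members lay below that threshold, beside 5.51% of all genes. For Mcm4, Cdc6 and Cdt1 the 24 h and 6 h arrays did not overlap in that direction, which held for 3.54% of all genes. None of the 8 passed after adjustment over all genes.

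Cdc6, the loader that brings Cdt1 and the helicase to the origin and whose promoter is the first shown above, had log2 levels of 5.89, 5.90, 5.78 and 5.56 at 6 h, 4.97, 5.02, 4.94 and 5.01 at 24 h, and 6.17, 5.51 and 5.51 in vehicle skin. The 4 arrays at 24 h lay within 0.1 of each other and below all 7 others. They also lay below the array's 40th percentile of 5.21, so that the probe set was dim there. The difference was -0.80 ± 0.17 (SE) for 24 h against 6 h (limma adjusted p = 0.20, rank 53 of 13710 by p) and -0.74 ± 0.19 for 24 h against vehicle (adjusted p = 0.531, rank 49). At 6 h Cdc6 was 0.05 ± 0.19 above vehicle, which was within its error.

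Cdt1, the second loading factor, had levels of 8.26, 8.18, 8.26 and 8.16 at 6 h, 6.82, 7.84, 7.05 and 7.80 at 24 h, and 8.05, 7.54 and 7.70 in vehicle skin. The 6 h arrays were tightly grouped above all others, and the 24 h arrays overlapped vehicle. The difference was -0.84 ± 0.24 for 24 h against 6 h (limma adjusted p = 0.307). A second, dimmer Cdt1 probe set gave -0.50 for 24 h against 6 h, but -0.63 for 6 h against vehicle where the brightest gave 0.45 ± 0.26, so that the sign at 6 h depended on the probe set.

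Mcm4, a subunit of the helicase, stood at 8.97, 8.98, 9.11 and 9.02 at 6 h, 7.95, 8.70, 7.96 and 8.47 at 24 h, and 8.52, 8.11 and 7.92 in vehicle skin. All 4 arrays at 6 h lay above all others, and the 24 h and vehicle arrays overlapped. At 6 h Mcm4 was 0.84 ± 0.22 above vehicle (1.79-fold, 95% interval of the log2 difference 0.36 to 1.32), the member of smallest p in that comparison (limma adjusted p = 0.157, rank 234). Without normalization this difference was 0.05, with the median of all genes at -0.68. At 24 h it was 0.75 ± 0.20 lower than at 6 h (adjusted p = 0.267) and 0.09 ± 0.22 above vehicle. The second Mcm4 probe set gave 0.40 for 6 h against vehicle and -0.60 for 24 h against 6 h.

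Mcm2, another helicase subunit and a common marker of cells licensed to divide, had levels of 8.40, 8.07, 7.56 and 7.36 at 6 h, 6.38, 7.30, 6.19 and 7.48 at 24 h, and 7.80, 7.47 and 7.32 in vehicle skin. Replicates 1 and 3 at 24 h lay well below the lowest 6 h array, while replicate 4 lay above it. Its difference of -1.0 ± 0.32 for 24 h against 6 h was the widest of the 41 members tested (0.498-fold, limma adjusted p = 0.375). Against vehicle the differences were 0.32 ± 0.35 at 6 h (adjusted p = 0.677) and -0.69 ± 0.35 at 24 h (adjusted p = 0.663). The second Mcm2 probe set gave -0.45 for 24 h against 6 h.

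Mcm3 had levels of 7.84, 7.59, 7.73 and 6.96 at 6 h, 6.76, 7.46, 6.38 and 7.13 at 24 h, and 8.10, 7.27 and 7.28 in vehicle skin. The groups overlapped, with 24 h replicates 1 and 3 the lowest of the 11. It was -0.61 ± 0.31 at 24 h against vehicle (limma adjusted p = 0.662). For the other licensing genes, 24 h was below 6 h by 0.83 ± 0.34 for Mcm5, 0.61 ± 0.41 for Mcm6 and 0.42 ± 0.26 for Mcm7, with groups that overlapped. Against vehicle, 7 of the 8 licensing genes were lower at 24 h (median -0.60), with Mcm4 the exception, and 6 of the 8 were higher at 6 h, with Mcm3 and Mcm6 just below 0 (median 0.23, and -0.55 without normalization, which was 0.13 above the median gene). Without vehicle replicate 1 the 24 h median was -0.30, and without 6 h replicate 1 the 6 h median was 0.095. For Mcm5 and Mcm6 too, the sign at 6 h against vehicle depended on the probe set. Other bright probe sets gave -0.10 for Mcm5, 0.49 and 0.63 for Mcm6, and -0.75, -0.05 and -0.11 for Mcm3. Those of Mcm2, Mcm4 and Mcm7 were above 0 there.

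**Figure D2:**
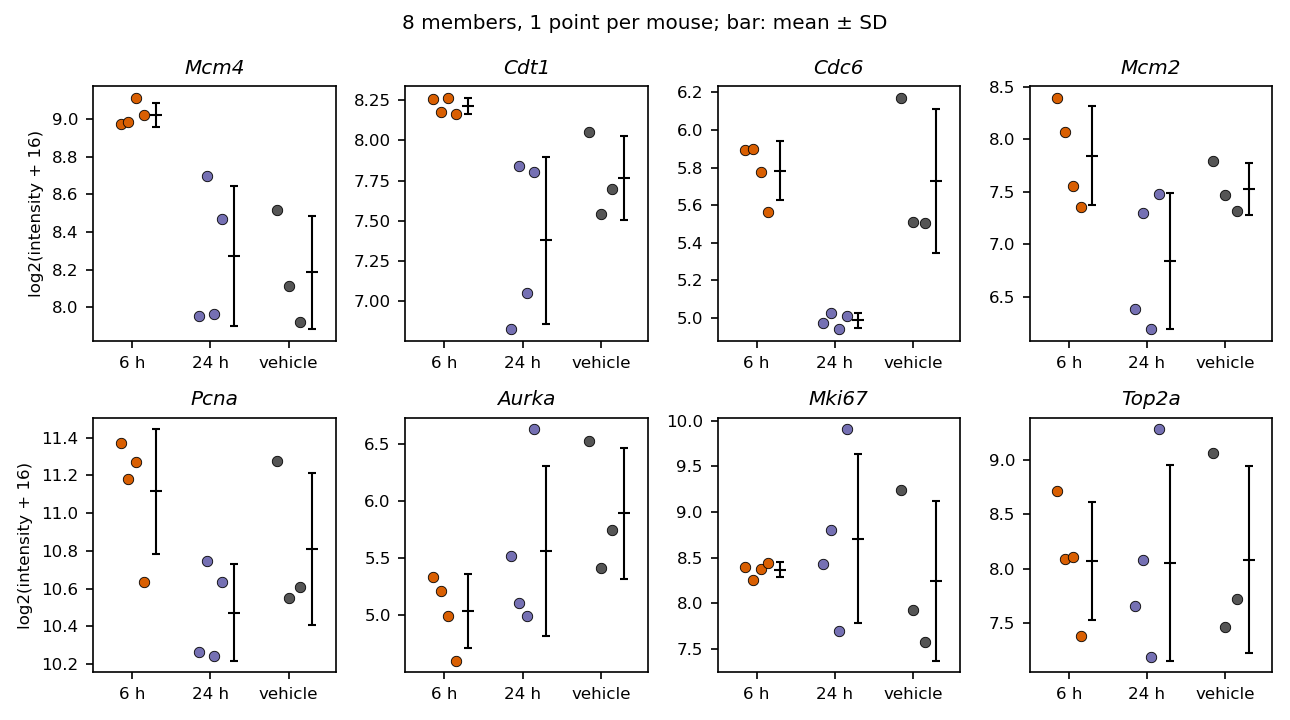
Log2(intensity + 16) of named members on each array (points) in 6 h, 24 h and vehicle skin, with the group mean (bar) and SD (error bar). Cdc6 lies between 4.94 and 5.02 at 24 h, below every 6 h and vehicle array, whereas Mki67 at 24 h runs from 7.69 to 9.91, across both other groups.

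The fork genes followed the same order with smaller differences. Of 7, 6 were lower at 24 h than at 6 h (median -0.27), the exception being Cdc45 at 0.07. The second bright Cdc45 probe set gave -0.57 there. Pcna, the clamp that holds the polymerases on DNA, had levels of 11.37, 11.18, 11.27 and 10.63 at 6 h, 10.27, 10.75, 10.25 and 10.64 at 24 h, and 11.28, 10.55 and 10.61 in vehicle skin. Replicates 1 to 3 at 6 h lay above all 24 h arrays, and 6 h replicate 5 lay among them. The difference was -0.64 ± 0.23 for 24 h against 6 h (limma adjusted p = 0.407), 0.30 ± 0.25 for 6 h against vehicle (adjusted p = 0.566) and -0.34 ± 0.25 for 24 h against vehicle (adjusted p = 0.741).

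Prim1, the catalytic primase subunit that starts each new strand with an RNA primer, had levels of 8.72, 8.59, 8.35 and 8.18 at 6 h, 7.98, 7.91, 7.73 and 8.54 at 24 h, and 8.03, 8.02 and 7.85 in vehicle skin. Each 6 h array lay above each vehicle array, while 24 h replicate 4 lay among the 6 h arrays. At 6 h the difference from vehicle was 0.50 ± 0.21 (limma adjusted p = 0.289), and it was -0.32 without normalization. Together with Mcm4 and Cdt1, Prim1 was 1 of 3 replication members higher at 6 h with no overlap, beside 9.77% of all genes.

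Of the genes of S phase entry, Ccne2 (cyclin E2) had levels of 7.25, 7.78, 7.99 and 8.02 at 6 h, 6.94, 7.78, 7.19 and 6.87 at 24 h, and 7.25, 7.11 and 6.93 in vehicle skin. Replicates 2, 3 and 5 at 6 h lay above all vehicle arrays, and 6 h replicate 1 was level with the highest of them. The difference was 0.66 ± 0.26 for 6 h against vehicle (limma adjusted p = 0.256) and -0.12 without normalization. With Mcm4 and Prim1 it made 3 replication members higher at 6 h at an unadjusted p under 0.05, beside 8.02% of all genes, and none was lower, beside 8.05%. At 24 h Ccne2 was 0.56 ± 0.24 below 6 h (adjusted p = 0.500). Uhrf1, which guides maintenance methylation to new DNA, was 0.76 ± 0.41 lower at 24 h than at 6 h. E2f1, at 0.05, was 1 of only 2 replication members not lower there, but its second bright probe set gave -0.76. Both kept subunits of ribonucleotide reductase, Rrm1 and Rrm2, had a median of -0.30 in that comparison.

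Over all 21 replication members, 19 were lower at 24 h than at 6 h (median -0.46, range -1.0 to 0.07), beside 52.6% of all genes. At 6 h, 17 of 21 were above vehicle (median 0.24, against 0.00 for all genes), but without normalization the median was -0.50 and 20 of 21 lay below vehicle, with all genes at -0.68. At 24 h, 14 of 21 were below vehicle (median -0.20, against -0.02 for all genes). With arrays scaled to a common median, 20 were below it (median -0.52, with all genes at -0.23). Without normalization all 21 were below it (median -0.90, with all genes at -0.62). Relative to the median gene, the replication medians under these scalings were -0.30 and -0.28. Leaving out 1 array moved the 24 h median of -0.20 between -0.42 (no vehicle replicate 4) and -0.04 (no vehicle replicate 1, with 11 of 21 below). Only Cdc6 was lower at an unadjusted p under 0.05 or without overlap, beside 4.47% and 6.02% of all genes. Of the 17 tested members with a promoter window, the 8 with an E2F word were all lower at 24 h than in vehicle skin (median -0.48), as were 4 of the 9 without one (median 0.02). For 24 h against 6 h, all 8 with the word and 7 of the 9 without it were lower (medians -0.69 and -0.40). At 6 h, 5 of the 8 and all 9 were above vehicle (medians 0.14 and 0.29). This split was not tested, and 6 of the 8 are licensing genes.

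**Figure D3:**
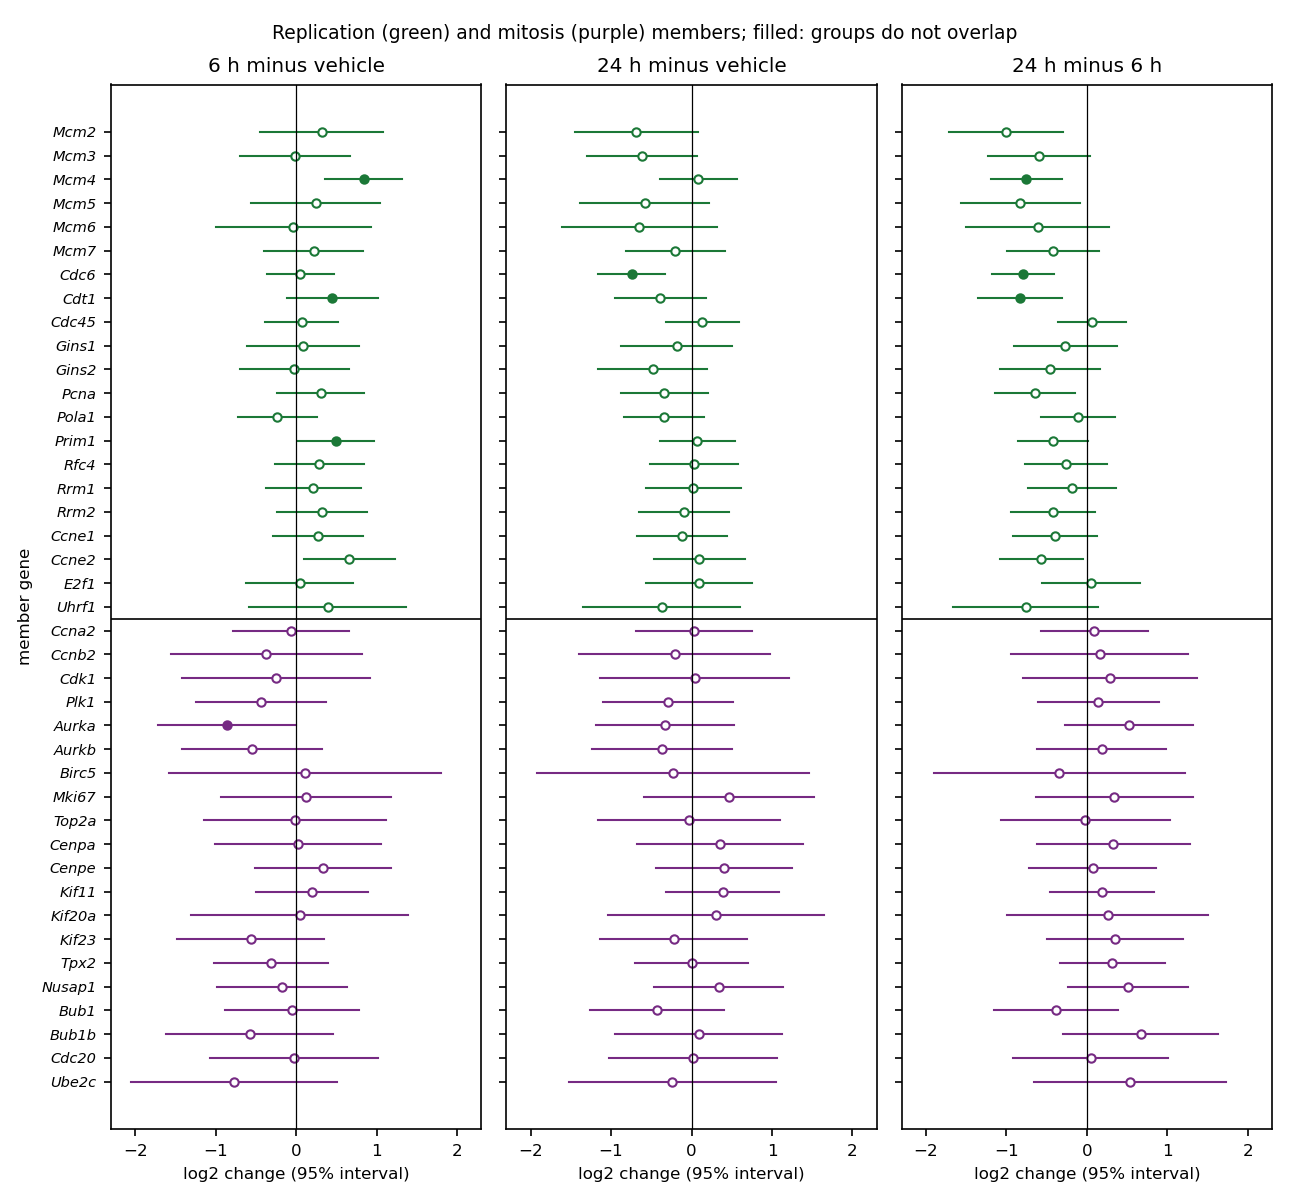
Log2 differences of the 41 tested members (points) with 95% intervals (lines) in 3 panels, each time minus vehicle and then 24 h minus 6 h, 1 row per gene, grouped by role. For 24 h minus 6 h all 8 licensing genes lie below 0 and 17 of 20 mitosis genes above 0, and every interval of the mitosis genes crosses 0.

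The mitosis genes did not follow the replication genes. At 6 h, 14 of 20 were below vehicle (median -0.12). At 24 h, 11 of 20 were above vehicle, and the median of 0.01 fell below 0 under each other scaling of the arrays (-0.60 without normalization). Without normalization the median of all genes was -0.62 in that comparison. At 24 h, 17 of 20 were above 6 h (median 0.22). None was past an unadjusted p of 0.05 in any comparison, beside background shares of 3.16% higher for 24 h against vehicle and 3.76% higher for 24 h against 6 h. None was higher without overlap in those comparisons, beside 5.09% and 1.92% of all genes. These medians rested on single arrays: without vehicle replicate 1 the 6 h median was 0.35 and the 24 h median 0.48, and without 24 h replicate 4 the median was -0.34 against vehicle and -0.05 against 6 h.

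Those arrays stood apart for nearly the whole mitosis class. Vehicle replicate 1 was the highest vehicle array for 20 of 20 mitosis and 21 of 21 replication members, beside 40% of all genes. It exceeded the mean of the other vehicle arrays by a median of 1.45 for the mitosis members, from 0.82 for Tpx2 (a spindle assembly factor) to 2.92 for Birc5 (survivin, of the chromosomal passenger complex), and by a median of 0.57 for the replication members. At 24 h, replicate 4 was the highest array for 18 of 20 mitosis and 10 of 21 replication members (32.7% of all genes) and replicate 3 the lowest for 17 of 20 mitosis members. The median residual SD within groups was 0.66 for the mitosis members, against 0.35 for the replication members and 0.34 for all genes.

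**Figure D4:**
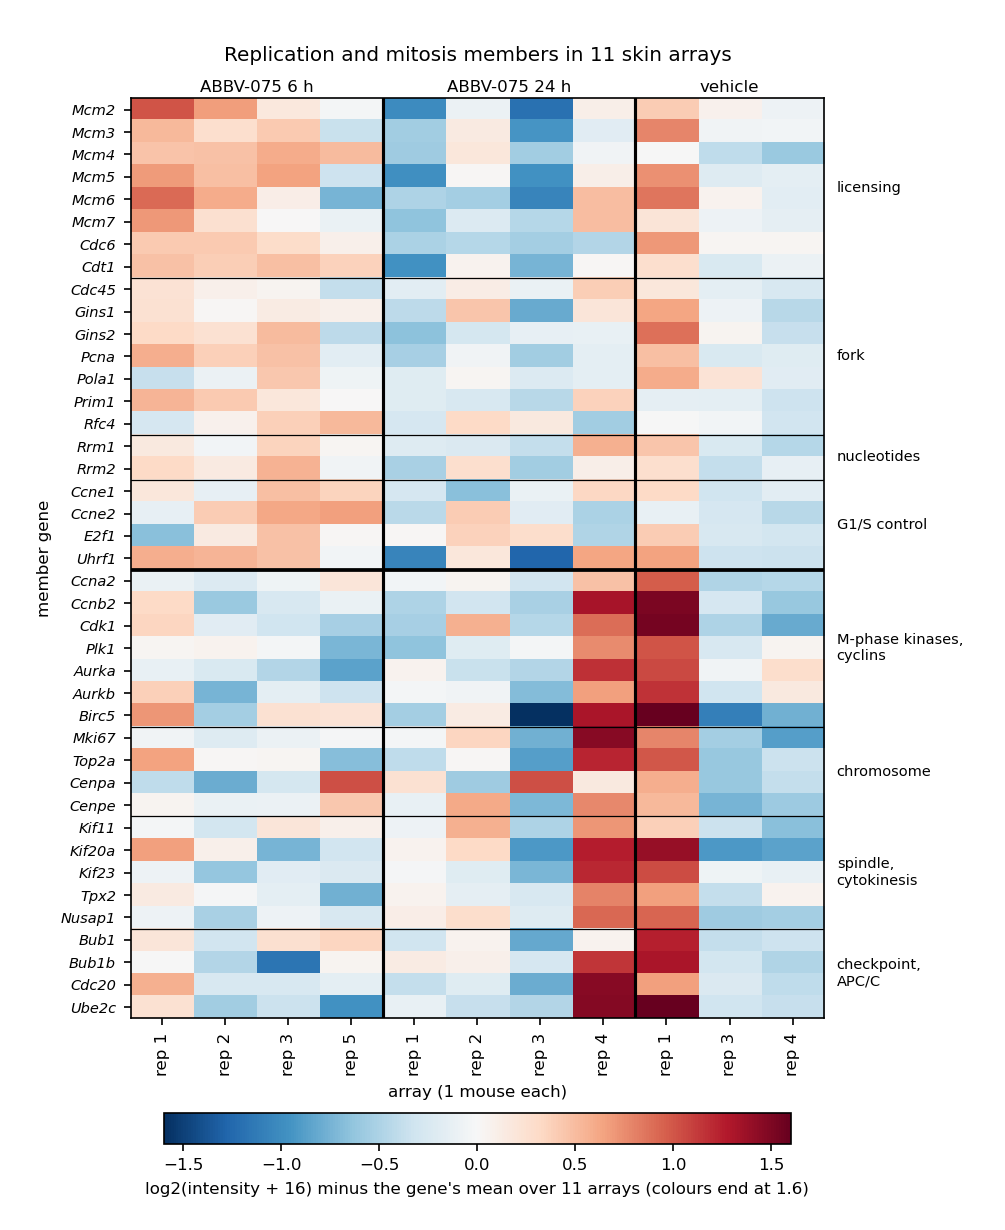
Level of each of the 41 tested members (rows) on each of the 11 arrays (columns, 6 h, 24 h and vehicle), as log2(intensity + 16) minus the gene's mean over all arrays, red above and blue below it. The mitosis rows are mostly red in 24 h replicate 4 and all red in vehicle replicate 1, and the licensing rows are blue in 24 h replicates 1 and 3 and mostly red in 6 h replicates 1 to 3.

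Mki67, the Ki-67 protein that coats mitotic chromosomes and marks cycling cells, had levels of 8.40, 8.25, 8.37 and 8.45 at 6 h, 8.43, 8.80, 7.69 and 9.91 at 24 h, and 9.24, 7.92 and 7.58 in vehicle skin. The 6 h arrays were within 0.2 of each other and inside the range of both other groups. The differences were 0.12 ± 0.48 for 6 h against vehicle (limma adjusted p = 0.922, 95% interval -0.93 to 1.17), 0.46 ± 0.48 for 24 h against vehicle (adjusted p = 0.822) and 0.34 ± 0.44 for 24 h against 6 h (adjusted p = 0.874). For 24 h against vehicle the difference was 0.064 without 24 h replicate 4 and 0.96 without vehicle replicate 1. At 6 h it was 0.61 without vehicle replicate 1 and -0.22 without vehicle replicate 4, and for 24 h against 6 h it was -0.060 without 24 h replicate 4.

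Top2a, the topoisomerase that untangles sister chromosomes, had levels of 8.71, 8.09, 8.10 and 7.38 at 6 h, 7.66, 8.08, 7.18 and 9.29 at 24 h, and 9.07, 7.46 and 7.72 in vehicle skin. All 3 groups overlapped, and their means were within 0.04 of each other. The differences were -0.01 ± 0.52 at 6 h (limma adjusted p = 0.995) and -0.03 ± 0.52 at 24 h against vehicle (adjusted p = 0.990), and -0.02 ± 0.48 for 24 h against 6 h (adjusted p = 0.993), so that a change of 1 log2 unit either way was within the 95% intervals. A second bright Top2a probe set gave 0.57 at 6 h and 0.65 at 24 h against vehicle, and 0.09 for 24 h against 6 h.

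Aurka (Aurora A), the kinase of the spindle poles, had levels of 5.34, 5.22, 5.0 and 4.60 at 6 h, 5.52, 5.11, 5.0 and 6.63 at 24 h, and 6.52, 5.41 and 5.74 in vehicle skin. Each 6 h array lay below each vehicle array, which made Aurka the only mitosis member lower without overlap at 6 h, beside 8.77% of all genes. The difference was -0.85 ± 0.39 for 6 h against vehicle (limma adjusted p = 0.312), -0.53 without vehicle replicate 1, and 0.52 ± 0.36 for 24 h against 6 h (adjusted p = 0.720). Aurka was above the 40th percentile on 7 of 11 arrays, so that part of its values lie near the dim end of the scale.

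Aurkb (Aurora B), the kinase of the chromosomal passenger complex, had levels of 5.70, 4.57, 5.16 and 4.98 at 6 h, 5.29, 5.26, 4.62 and 5.97 at 24 h, and 6.47, 5.0 and 5.47 in vehicle skin. Kif23, a motor of the central spindle in cytokinesis, had levels of 6.60, 6.06, 6.50 and 6.46 at 6 h, 6.67, 6.50, 5.95 and 7.89 at 24 h, and 7.72, 6.61 and 6.57 in vehicle skin. For both, vehicle replicate 1 and 24 h replicate 4 were the highest arrays of their groups and the groups overlapped. The 6 h differences from vehicle were -0.55 ± 0.40 for Aurkb (limma adjusted p = 0.522) and -0.56 ± 0.42 for Kif23 (adjusted p = 0.532). Without vehicle replicate 1 they were -0.13 and -0.18.

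Kif11, the motor that pushes the spindle poles apart, had levels of 6.34, 6.09, 6.57 and 6.45 at 6 h, 6.30, 6.94, 5.89 and 7.08 at 24 h, and 6.76, 6.03 and 5.71 in vehicle skin. Cenpe, a motor that carries chromosomes to the spindle equator, had levels of 6.46, 6.32, 6.33 and 6.86 at 6 h, 6.31, 7.03, 5.71 and 7.20 at 24 h, and 6.95, 5.68 and 5.84 in vehicle skin. In both the 24 h arrays covered nearly the whole range of the series. The differences for 24 h against vehicle were 0.39 ± 0.32 for Kif11 (limma adjusted p = 0.766) and 0.41 ± 0.39 for Cenpe (adjusted p = 0.800), and both were just below 0 without normalization. Leaving out 1 array moved them from 0.16 (no vehicle replicate 4) to 0.66 (no vehicle replicate 1) for Kif11, and from 0.17 (no vehicle replicate 3) to 0.78 (no vehicle replicate 1) for Cenpe. The sign for Kif11 depended on the probe set. In this comparison its other bright probe sets gave -0.12 and -0.14, and the second of Cenpe gave 0.08.

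The spindle checkpoint kinase Bub1 had levels of 6.25, 5.75, 6.32 and 6.40 at 6 h, 5.74, 6.11, 5.23 and 6.11 at 24 h, and 7.30, 5.67 and 5.72 in vehicle skin. Its difference of -0.43 ± 0.38 for 24 h against vehicle (limma adjusted p = 0.781) was 0.10 without vehicle replicate 1. Bub1b (BubR1), of the same checkpoint, had levels of 5.17, 4.71, 4.00 and 5.22 at 6 h, 5.31, 5.25, 4.90 and 6.31 at 24 h, and 6.48, 4.88 and 4.69 in vehicle skin. One 6 h value lay at the floor, and the difference was 0.67 ± 0.44 for 24 h against 6 h (adjusted p = 0.696). Nusap1, which bundles spindle microtubules, had levels of 7.09, 6.65, 7.09 and 6.92 at 6 h, 7.28, 7.46, 6.97 and 8.09 at 24 h, and 8.11, 6.60 and 6.63 in vehicle skin. Replicates 1, 2 and 4 at 24 h lay above all 6 h arrays, at 0.51 ± 0.34 for 24 h against 6 h (adjusted p = 0.706).

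By role, the 7 M-phase kinase and cyclin genes (with Ccna2, Ccnb2, Cdk1, Plk1 and Birc5) had medians of -0.37 at 6 h and -0.23 at 24 h against vehicle, the 4 chromosome genes (with Cenpa, the centromeric histone) 0.07 and 0.38, the 5 spindle genes (with Kif20a and Tpx2) -0.17 and 0.30, and the 4 checkpoint and anaphase-promoting complex genes (with its activator Cdc20 and its E2 enzyme Ube2c) -0.31 and -0.11. None of these medians was tested. All were below 0 without normalization, where the median of all genes was -0.68 at 6 h and -0.62 at 24 h. That of the chromosome genes at 6 h was below 0 with median scaling too. Of the 12 mitosis members with the CHR core, 9 were below vehicle at 6 h (median -0.31), 6 were below it at 24 h (median -0.0070) and 11 were higher at 24 h than at 6 h (median 0.31). Of the 4 matched mitosis members without it, 2 lay on each side of 0 in each of the 3 comparisons. This split was not tested.

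Of the 41 tested members, 22 had more than 1 bright probe set. Their changes had 1 sign in 13 of the 22 for 6 h against vehicle, in 15 for 24 h against vehicle and in 14 for 24 h against 6 h. Every kept probe set of the 8 licensing genes was lower at 24 h than at 6 h. Disagreement for 24 h against 6 h was found in Cdc45, Rrm1, Rrm2, E2f1, Aurkb, Top2a, Cenpe and Tpx2. For 6 h against vehicle it was found in Mcm5, Mcm6, Cdt1, Rrm1, Rrm2, Top2a, Kif11, Tpx2 and Cdc20. For 24 h against vehicle it was found in Mcm4, Mcm7, E2f1, Ccna2, Top2a, Kif11 and Tpx2.

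Other genes of the same pathways were listed by role. Of 41 further replication genes, 38 were tested: 31 were lower at 24 h than at 6 h (median -0.27, 5 of them at an unadjusted p under 0.05, beside 5.51% of all genes), 25 were lower at 24 h than in vehicle skin (median -0.09) and 28 were higher at 6 h than in vehicle skin (median 0.16, but -0.54 without normalization and just below 0 with median scaling). Orc6 and Dut, an origin recognition subunit and the enzyme that keeps uracil out of DNA, were -0.66 and -0.64 for 24 h against 6 h (limma adjusted p = 0.307 and 0.259). Orc2 was 0.79 above vehicle at 6 h (adjusted p = 0.147) and 0.53 at 24 h (-0.14 at 24 h without normalization), while the fork protection partners Timeless, at -0.89 at 6 h (adjusted p = 0.192), and Tipin, at -0.43 at 24 h (adjusted p = 0.590), were below it. In each of these comparisons the groups did not overlap, beside shares of all genes of 9.77% higher and 8.77% lower for 6 h against vehicle, 5.09% and 6.02% for 24 h against vehicle, and 3.54% lower for 24 h against 6 h. These genes were picked by their small p.

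Of 50 further mitosis genes, 44 were tested, and 24 were higher at 6 h than in vehicle skin (median 0.03), 27 higher at 24 h than in vehicle skin (median 0.09) and 28 higher at 24 h than at 6 h (median 0.06). The first of these medians was below 0 under each other scaling, and the second with median scaling and without normalization. Without normalization the median of all genes was -0.68 at 6 h and -0.62 at 24 h against vehicle. Foxm1, the transcription factor of the G2/M genes, was 0.67 above vehicle at 6 h and 0.85 at 24 h (limma adjusted p = 0.240 and 0.531), and the condensin subunit Smc4 was 0.63 above it at 6 h (adjusted p = 0.234, and -0.13 without normalization). Anln (anillin, of the cytokinetic ring) was 0.97 above vehicle and 0.69 above 6 h at 24 h (adjusted p = 0.531 and 0.427), and the checkpoint kinase Ttk was 0.63 higher at 24 h than at 6 h (adjusted p = 0.259). The groups did not overlap in these comparisons of genes picked by their small p, and 1.92% of all genes were likewise higher at 24 h than at 6 h.

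Levels of cell type markers are given beside those of the members. The mean log2 level of the licensing genes was 8.39, 8.19, 8.09 and 7.67 at 6 h, 7.03, 7.63, 6.94 and 7.81 at 24 h, and 8.24, 7.65 and 7.59 in vehicle skin. That of 10 basal keratinocyte markers was 10.85, 10.62, 9.60 and 9.32 at 6 h, 9.97, 9.72, 9.59 and 11.58 at 24 h, and 9.23, 9.88 and 9.77 in vehicle skin. At 6 h, replicates 1 and 2 were highest in both lists, and at 24 h replicate 4 was. The lists parted elsewhere: 24 h replicate 1 was second in basal markers at its time and low in licensing genes, and vehicle replicate 1, the highest vehicle array for all 41 members, was the lowest for basal markers.

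All 10 basal markers were above vehicle at both times (median 0.48 at 6 h and 0.56 at 24 h), none at an unadjusted p under 0.05. Without normalization these medians were -0.22 and -0.12, which was 0.45 and 0.50 above the median gene. Their summed intensity ran from 13948 to 34925 at 6 h, from 13994 to 49031 at 24 h and from 10631 to 20720 in vehicle skin, with the hemidesmosome integrin Itgb4 at 0 on 2 arrays. The mean of 8 macrophage markers ran from 9.13 to 10.14 at 6 h, was 8.09 in 24 h replicate 4 and 10.33 to 10.53 in the other 24 h arrays, and was 11.45 in vehicle replicate 1 against 10.44 and 10.27 in the other vehicle arrays. All 8 were below vehicle at both times (median -0.78 at 6 h and -0.86 at 24 h), and their summed intensity ran from 7268 to 16402 at 6 h, from 3287 to 18117 at 24 h and from 13498 to 28657 in vehicle skin, with none at 0.

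The hair matrix, the dividing compartment of the growing follicle, was represented by 6 tested of 10 listed markers. The summed intensity of the 9 listed markers with a probe set, tested or not, ran from 206 to 354 at 6 h, from 168 to 2713 at 24 h and from 209 to 1749 in vehicle skin. Of these, Krt33a was at 0 on 7 arrays, Krt35 on 3 and Shh on 2. The median of the 6 tested markers was -0.22 at 6 h and 0.14 at 24 h against vehicle. Medians at 6 h and 24 h against vehicle were 0.13 and 0.01 for 9 differentiated keratinocyte markers, -0.32 and -0.62 for 9 fibroblast markers, -0.03 and 0.00 for 6 T cell markers, -0.88 and -0.54 for 6 adipocyte markers, -0.70 and -0.68 for 8 endothelial markers, -0.19 and 0.32 for 8 skeletal muscle markers and 0.25 and 0.33 for 6 melanocyte markers. All medians in this group of lists were below 0 without normalization, where that of all genes was -0.68 at 6 h and -0.62 at 24 h. With median scaling the medians of skeletal muscle at 6 h and of differentiated keratinocytes at 24 h changed sign. The part of cell composition and of RNA quality in the members' differences was not tested.

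**Figure D5:**
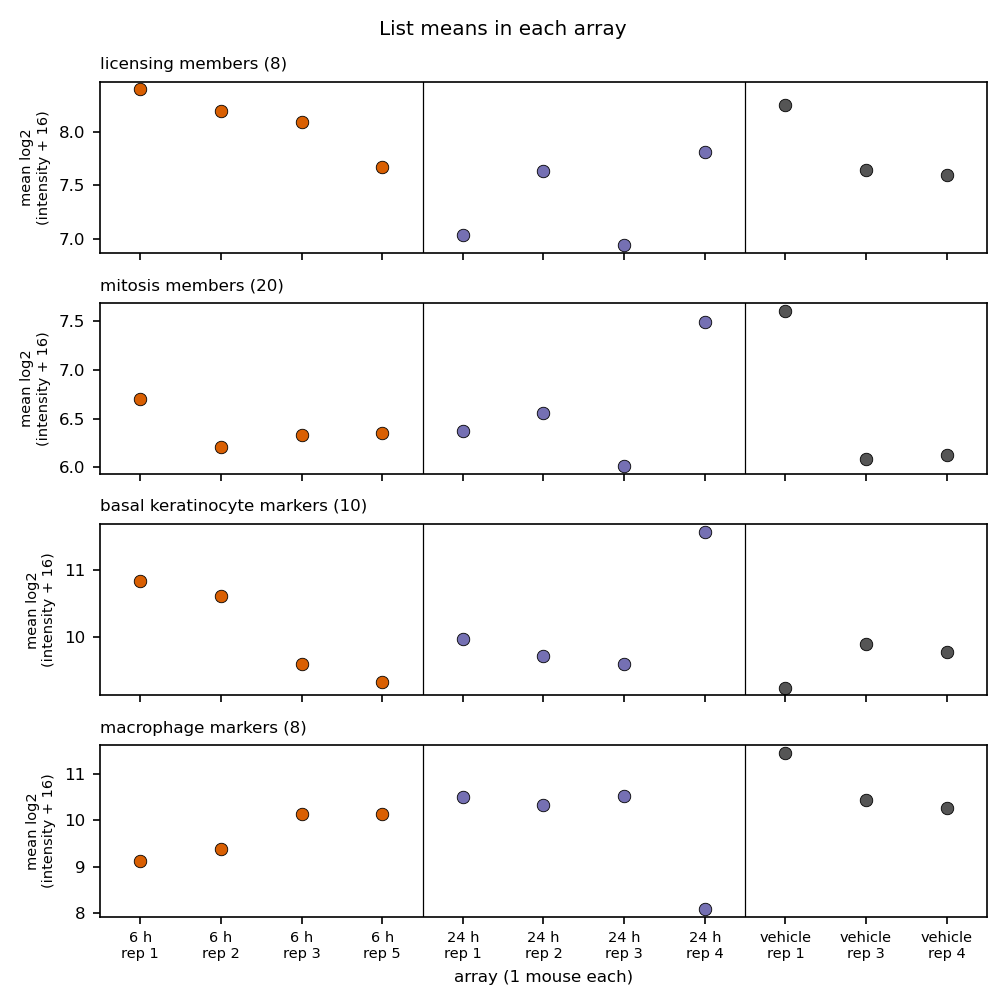
Mean log2(intensity + 16) of gene lists on each array (points), in 6 h, 24 h and vehicle skin. The licensing genes reach 8.39 at 6 h and 6.94 at 24 h, and the mitosis members are highest in vehicle replicate 1 (7.61) and 24 h replicate 4 (7.49).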

How the data were processed

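Skin RNA of 11 mice was measured on Affymetrix arrays, from 200 ng of total RNA amplified with a 3' IVT kit, per the labels' protocols. The authors deposited linear intensities of 45101 probe sets for each array. How these were background-corrected and scaled is not given in the sources used here. Of an array's values 12.9% to 16.6% were below 0, and the trimmed mean ran from 82.8 to 244. At most 3 probe sets had identical values on a pair of arrays.

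The deposited intensities were quantile-normalized, set to at least 0 and taken as log2(intensity + 16). Annotation gave 1 gene for 34958 probe sets, several for 932 and none for 9211. The brightest probe set stood for a gene, which was kept if above the array's 40th percentile on at least 3 arrays. Groups were compared with limma 3.58.1 in R 4.3.3, in 1 fit over 11 arrays with no covariate, two-sided, with Benjamini-Hochberg adjustment over the 13710 genes kept and a threshold of 0.05. The fit was tested on simulated data. The number of arrays limits the precision. Nothing beyond the design text says that arrays of a group are separate animals.

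The members and all gene lists were chosen with earlier results of these data known. Values on every array are given for the 3 replication and 3 mitosis members of smallest p in each comparison and for Mcm2, Pcna, Mki67 and Top2a, and in the other lists the 2 genes of smallest p are named. Same-numbered 24 h and vehicle arrays deviated together (correlations of 0.25, 0.13 and 0.21 over genes for numbers 1, 3 and 4), which met the level set for pairing. Arrays of unlike number reached similar values, 0.21 for 24 h replicate 2 with vehicle replicate 4 and 0.17 for 24 h replicate 3 with vehicle replicate 1. Others of unlike number were as low as -0.35, and the labels state no pairing. Same-numbered 6 h and vehicle arrays did not meet the level (-0.12 and -0.07). Same-numbered 24 h and 6 h arrays gave -0.06, -0.35 and 0.17 for numbers 1, 2 and 3. Some arrays of unlike number were above every same-numbered value. They include 24 h replicate 4 with 6 h replicates 1 and 2 (0.56 and 0.53) and 6 h replicate 3 with vehicle replicate 1 (0.29). With 6 h replicate 5, 24 h replicate 4 gave -0.54. The differences, errors and p-values in the report come from the fit without a block, which ignores any such pairing. The block was an alternative over all 11 arrays, 6 h arrays included. Alternatives in normalization, pseudocount, filter, probe set choice, weights, prior, block, a beta-actin ratio covariate and arrays left out were run. Promoters are RefSeq windows on GRCm38.p6, matched by symbol for 34 members.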

Additional observations from a re-analysis of the deposited data

How the results depend on the processing

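No member was called under 25 of 26 alternatives. With limma array weights (4.85 for vehicle replicate 3, 0.270 for 24 h replicate 4) 5 members were called higher at 6 h than in vehicle skin (Mcm4, Cdt1, Pcna, Prim1 and Ccne2, adjusted p = 0.0073 to 0.0445). In that direction 1057 of all 13710 genes were called. With the same weights 8 members were called lower at 24 h than at 6 h (Mcm2, Mcm4, Mcm5, Cdc6, Cdt1, Pcna, Prim1 and Uhrf1, adjusted p = 0.0173 to 0.0439), beside 249 of all 13710 genes. The cause was not tested. The median of the 8 licensing genes for 24 h against 6 h stayed between -1.01 and -0.57 over all 26 alternatives, with no member above 0 in any. With the replicate number as a block no member's call changed, the licensing medians were 0.46, -0.63 and -0.87 for 6 h and 24 h against vehicle and 24 h against 6 h, the count of all genes called at 6 h was 1, and Top2a was 0.43 at 6 h and 0.025 at 24 h against vehicle.

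Genes called at 6 h numbered 859 as deposited, 18 with no filter, 7 with mean probe sets, 2498 with array weights and 0 to 22 leaving out 1 array. At 24 h against vehicle they numbered 6, 1 (no filter), 59 (weights) and 0 to 1. For 24 h against 6 h they numbered 2 with mean probe sets, 1 leaving out the x_at and s_at ones, 423 with weights, 3 with the actin covariate and 0 to 7. As deposited, the medians against vehicle of replication, mitosis and licensing members were -0.50, -0.83 and -0.55 at 6 h and -0.90, -0.60 and -1.15 at 24 h. Relative to the median gene (-0.68 and -0.62) they were 0.18, -0.15 and 0.13 at 6 h and -0.28, 0.02 and -0.53 at 24 h. With arrays scaled to a common median the 24 h replication median was -0.52 and that of all genes -0.23. Leaving out 1 array gave mitosis medians of -0.44 (no vehicle replicate 3) to 0.35 (no vehicle replicate 1) at 6 h, -0.34 to 0.48 at 24 h and -0.05 to 0.41 for 24 h against 6 h, replication medians of 0.14 to 0.45, -0.42 to -0.04 and -0.60 to -0.40, and licensing medians of 0.10 to 0.39, -0.73 to -0.30 and -0.87 to -0.65. Without vehicle replicate 1 and 24 h replicate 4, chosen after seeing the data, the mitosis medians were 0.32, 0.05 and -0.05 and the licensing medians 0.39, -0.43 and -0.87. Without the 3 arrays of beta-actin ratio under 0.3, chosen likewise, the licensing medians were 0.46, -0.67 and -0.99.

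Signs turned for these single genes. As deposited, Ccne2 was -0.12, Prim1 -0.32, Mcm2 -0.50, Pcna -0.40 and Mki67 -0.70 at 6 h, Kif11 was -0.092, Cenpe -0.059 and Mki67 -0.29 at 24 h against vehicle, and Top2a was 0.080 for 24 h against 6 h. Mki67 at 6 h was -0.057 with median scaling, -0.051 with the actin covariate and -0.22 to 0.61 leaving out 1 array, and for 24 h against 6 h it was -0.059 without the 2 arrays and -0.060 to 0.68 leaving out 1. Top2a at 6 h was 0.19 with mean probe sets, 0.50 with weights, 0.25 with the covariate, 0.48 without 2 arrays, 0.32 without 3 and -0.32 to 0.48 leaving out 1. At 24 h against vehicle it was 0.21, 0.0053, 0.082, 0.050 (without 2) and -0.45 to 0.46, and for 24 h against 6 h 0.0026 with cyclic loess, 0.022 with mean probe sets and -0.44 to 0.27. Bub1 at 24 h ran from -0.70 to 0.10.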
